A study of Mus musculus with 9 samples.

Results

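The subject is 122 noncoding genes of the mouse cochlea that carry values in homozygous Pou4f3 mutants. They are the genes listed in the libraries of homozygotes whose GENCODE M21 type is other than protein-coding, with Gm13373 left out. The homozygous libraries list 1137 genes, of which 1013 are protein-coding, while the heterozygous and wild-type libraries list 51912 genes, 29849 of them noncoding. The 122 comprise 59 long noncoding RNAs, 36 pseudogenes, 20 short RNAs and 7 TEC loci, gene models that the annotation holds until experimental evidence is added. By finer type there are 27 processed pseudogenes, 23 antisense RNAs, 17 processed transcripts, 16 lincRNAs, 9 miRNAs and 5 snoRNAs, and 3 or 4 rRNAs and transcribed processed pseudogenes. The other types hold 1 or 2 members each.

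Whole cochleae at postnatal day 3 were profiled by RNA-seq in 3 groups of 3 libraries. By the sample titles these are Pou4f3(Δ/Δ), called HOM here, Pou4f3(Δ/+), called HET, and Pou4f3(+/+), called WT. Pou4f3 encodes a transcription factor that hair cells, which sense sound and motion in the ear, need to mature and survive, and Δ is the mutant allele, its extent not given in the sources used here. In all 9 samples the title and the genotype characteristic disagree. Groups follow the titles, and every direction depends on that. The series text speaks of heterozygotes and wild-type littermates and does not mention homozygotes. Neither strain nor sex is given, and nothing says whether the libraries of a group came from separate animals. Xist, an RNA of the inactive X chromosome of females, had 78.17 FPKM in WT replicate 2 and 0.08 and 0.06 FPKM in the other WT libraries. WT replicate 2 is thus no technical copy of those, while the origin of the other libraries stays unknown. P-values measure only the spread between these samples, which may be partly technical.

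Long noncoding RNAs are transcripts without a long conserved reading frame, and antisense ones are read from the strand opposite another gene. Processed pseudogenes are copies of messenger RNAs pasted back into the genome, often so close to their source gene that short reads cannot be assigned to one of them with certainty. miRNAs pair with messenger RNAs through a short seed and lower their output, snoRNAs guide chemical changes on ribosomal RNA, and scaRNAs do so on spliceosomal RNA. The libraries kept inserts of about 300 bp after poly(A) selection or rRNA removal, so mature miRNAs were not captured as such, and a value at a miRNA locus counts longer RNA that spans it. Use of strand in counting is stated nowhere in the labels. Reads of overlapping genes on either strand may therefore be mixed.

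Values are FPKM, fragments per kilobase of exon and per 1e6 fragments, calculated by the authors. Depth recovered from the steps between low values, in units of 1e6 fragments, was 14.3 to 15.8 in HOM, 15.5 to 17.4 in HET and 14.6 to 17.0 in WT. Pou4f3 itself had 5.92, 1.36 and 9.39 FPKM in HOM, 24.21, 21.74 and 25.56 FPKM in HET and 25.02, 24.49 and 26.97 FPKM in WT. HOM lay below both other groups, with HOM replicate 2 lowest. Of 28 hair cell markers 24 are listed in HOM, and their summed level was 91.8 to 160.1 FPKM in HOM against 583 to 638 FPKM in WT, with replicate 2 again the lowest of HOM. Of 6 supporting cell markers 3 are listed, with a summed level of 1192 to 1317 FPKM in HOM against 878 to 985 FPKM in WT. Most of this sum is Epyc, at 952 to 1050 FPKM in HOM and 688 to 788 FPKM in WT. Of 5 erythroid markers 2 are listed, at 25.7 to 36.2 FPKM in HOM against 67.6 to 81.1 FPKM in WT, and of 4 macrophage markers 1, at 6.26 to 7.40 FPKM in HOM against 4.72 to 5.78 FPKM in WT. Each sum covers listed markers only, and every listed gene lies apart between HOM and WT, so a gap was set in advance. The sums are thus no levels of the cell types. The part of these cell types in the members' values was not tested. In whole tissue, fewer cells of a type and less RNA per cell cannot be told apart. HOM replicate 2 was the lowest HOM library in 36 of the 88 members lower in HOM (40.9%), in 31 of the 61 of these with at least 10 fragments per library on average (50.8%), and in 49.6% of all listed genes lower in HOM.

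The sequences that follow belong to members whose values are given below. The mature miRNAs come from RefSeq (GRCm38.p6), which matched 7 of the 9 miRNA members. Capitals mark the seed, bases 2 to 8, by which a miRNA recognises its targets. The loci shown are the miRNA matched there with the most WT fragments, the single short RNA higher in HOM, a member of the miR-181 family, and Mir6941, which like Gm47279 had no HOM fragment but fragments in every HET library.
mmu-miR-199a-5p: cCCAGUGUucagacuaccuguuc
mmu-miR-199a-3p: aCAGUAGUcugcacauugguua
mmu-miR-208a-3p: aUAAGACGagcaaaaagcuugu
mmu-miR-181d-5p: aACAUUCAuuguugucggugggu
mmu-miR-6941-5p: cUGGGGGAcugacggguagcu
No seed was shared between members. The seed of miR-181d-5p is that of 4 mature mouse miRNAs, the 5p arms of miR-181a, b, c and d, and those of miR-199a-3p and miR-208a-3p are shared with miR-199b-3p and miR-208b-3p.

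The second sequence is Gm4825, the member with the largest difference, from GENCODE M21 on GRCm38 (chr15:85510812-85511219, plus strand). Its first 300 bases are printed (chr15:85510812-85511111). Capitals mark the 24 of these that differ from Rpl27, the gene of a large-subunit ribosomal protein.
Gm4825: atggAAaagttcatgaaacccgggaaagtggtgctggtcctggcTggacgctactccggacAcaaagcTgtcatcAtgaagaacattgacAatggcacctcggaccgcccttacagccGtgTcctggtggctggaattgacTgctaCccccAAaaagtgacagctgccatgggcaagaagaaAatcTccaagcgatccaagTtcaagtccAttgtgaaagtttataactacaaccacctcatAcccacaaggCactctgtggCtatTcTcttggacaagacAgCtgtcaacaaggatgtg
Over all 408 bases 30 differ, at 92.6% identity, and the 136 codons in the frame of Rpl27 hold 0 stop codons. The third is Gm24682, a scaRNA on the strand opposite Diablo (GRCm38 chr5:123518231-123518367, plus strand), the short RNA with the highest WT level.
Gm24682: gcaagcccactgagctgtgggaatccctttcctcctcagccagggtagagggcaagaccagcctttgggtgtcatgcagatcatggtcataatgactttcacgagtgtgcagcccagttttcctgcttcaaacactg
The fourth is the promoter of Gm14207, which starts beside Dll4 on the opposite strand (RefSeq, GRCm38.p6 chr2:119326148-119326447, minus strand). Its capitals mark CAGCTG, an E-box, the type of site that bHLH factors such as the hair cell factor Atoh1 bind.
Gm14207 promoter: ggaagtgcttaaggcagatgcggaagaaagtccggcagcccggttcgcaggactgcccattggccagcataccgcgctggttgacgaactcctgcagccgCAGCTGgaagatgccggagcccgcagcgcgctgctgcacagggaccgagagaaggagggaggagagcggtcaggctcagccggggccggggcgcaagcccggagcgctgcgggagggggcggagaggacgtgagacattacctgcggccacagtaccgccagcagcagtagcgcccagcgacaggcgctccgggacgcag
CAGCTG reads the same on both strands. It occurs in 16.3% of 32851 promoters of this length and in those of 9 of the 29 members the table holds, Gm13782, Gm14207, Gm10754 and Pantr2 among them. TGGGAA, the core bound by the Notch factor Rbpj, searched on both strands and able to overlap CAGCTG by 2 bases, was in 25.6% of promoters and in those of 7 of the 29 members. A match is a description of letters and no evidence of binding.

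Listing in HOM was itself tied to a difference: for every listed gene (100%) the 3 HOM libraries do not overlap the 3 WT libraries. The members were thus chosen by their FPKM in HOM and WT, and that contrast is described here without a test. Of the 122, 88 were lower in HOM and 34 higher, or 72.1% lower against 69.8% of all listed genes and 69.5% of listed coding genes, with 30.2% of all listed genes higher. The median difference, HOM minus WT on the log2(FPKM + 1) scale, was -0.45 in the members and -0.23 over all listed genes, and it ran from -3.0 to 0.72. With upper-quartile scaling the median over all listed genes moved to -0.02 and that of the members to -0.26, and 84 members were lower and 38 higher. The scaling factors came from the listed genes alone. Since 69.8% of these were lower in HOM, such scaling raises HOM values. How far the choice of genes sets this shift was not tested. In 42 members, 16 of them short RNAs, the HOM mean was 50% or less of the WT mean, and in 0 members was it at least 200%. All 122 members and all 1013 listed coding genes had a WT mean of at least 1 FPKM. Rises from below that level in WT are thus absent, while falls to 0 are not, so the balance of falls and rises depends on the listing. The same shares over all listed genes were not calculated. These counts, and those by class below, therefore have no background and say nothing particular to noncoding genes.

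Where the WT mean reached 1 FPKM, 122 of 2386 noncoding genes (5.11%) are listed in HOM, against 1013 of 12734 coding genes (7.96%). Long noncoding RNAs stood at 5.74%, pseudogenes at 4.88%, short RNAs at 4.66% and TEC loci at 3.65%. The members closest to no difference were Pantr2, at 87.4% of its WT mean, and Ppp1ccb, at 87.9%, on the lower side. On the higher side they were Cct6a at 117% and Kansl2-ps at 119%. Which genes lay just outside the listing cannot be given, since unlisted genes have no HOM value here.

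The number of fragments behind a value differed by class. Short RNAs had a median of 2.78 fragments per library, and 17 of the 20 had fewer than 10. In the 93 members with at least 10 fragments per library on average, 61 were lower in HOM and the median difference was -0.30. In the 29 members below that, 27 were lower and the median was -0.96. The 95% counting interval of HOM relative to WT included 100% for 25 members, 10 of them short RNAs, although their libraries do not overlap. Intervals here cover counting error only.

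**Figure D1:**
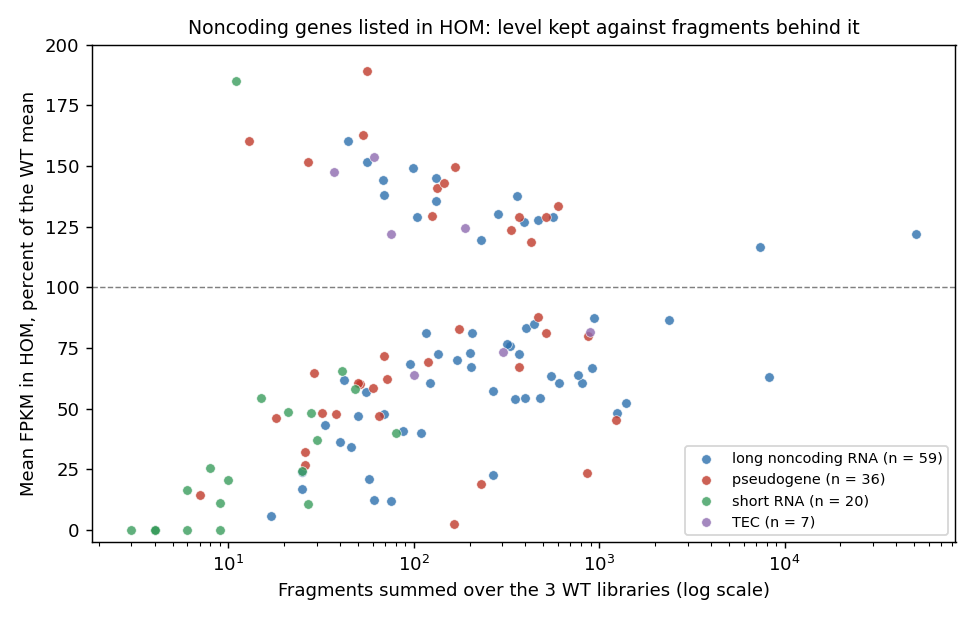
HOM mean FPKM as a percent of the WT mean (vertical axis) against the fragments summed over the 3 WT libraries (horizontal axis, log scale) for the 122 members, coloured by class, with a dashed line at 100%. Short RNAs lie at the left, 19 of 20 below the line, and the 6 members at 0% have fewer than 10 WT fragments each.

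The 59 long noncoding RNAs were lower in HOM in 43 cases, with a median difference of -0.37 and 15 of them at 50% of WT or less. The most abundant antisense member was Gm13782, which overlaps Cep41, a gene for a protein of centrioles and cilia, on the opposite strand without sharing exon bases. Gm13782 had 39.91, 28.33 and 41.32 FPKM in HOM, 65.08, 70.68 and 66.15 FPKM in HET and 79.61, 76.84 and 70.80 FPKM in WT. The 3 groups do not overlap one another, and HOM stood at 48.2% of the WT mean. Cep41 was lower in the same libraries, with 28.58, 18.47 and 30.68 FPKM in HOM, 40.71, 47.68 and 47.26 FPKM in HET and 42.31, 44.08 and 41.17 FPKM in WT. HET and WT overlap for Cep41, with the HET mean above WT, while for Gm13782 HET lay below WT. Another antisense member on chromosome 6, Gm13781, lies opposite Cpa4, a carboxypeptidase gene. Gm13781 had 8.67, 7.07 and 9.04 FPKM in HOM, 17.30, 13.31 and 14.12 FPKM in HET and 14.09, 13.54 and 18.27 FPKM in WT. HOM was below both other groups, which overlap each other.

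Miat is a long nuclear RNA known from retina, brain and heart. It had 11.50, 9.96 and 14.86 FPKM in HOM, 20.78, 21.64 and 24.68 FPKM in HET and 17.03, 18.76 and 21.68 FPKM in WT. HOM lay below both other groups, at 63.2% of the WT mean and on 5119 fragments in HOM and 8281 in WT. HET replicate 1 and WT replicate 3 had the highest summed level of 5 neuron markers in their groups, 77.72 FPKM in HET replicate 1 against 55.14 and 50.60 FPKM in the other HET libraries, and 81.49 FPKM in WT replicate 3 against 35.09 and 61.87 FPKM in the other WT libraries. None of the 5 is listed in HOM, and their part in the Miat values was not tested.

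Gm12000 lies inside Ikzf1, a gene for a zinc finger factor, on the opposite strand. It had 0.67, 0 and 0.10 FPKM in HOM, 1.75, 1.74 and 1.64 FPKM in HET and 2.71, 1.64 and 1.79 FPKM in WT. HOM was far below both other groups, at 12.5% of the WT mean, on 7 fragments in HOM, 53 in HET and 61 in WT. Gm20421 overlaps Hes5, a Notch target gene of supporting cells, on the opposite strand and shares 433 exon bases with it. Its values were 0.21, 0.29 and 0.66 FPKM in HOM, 1.46, 0.94 and 1.34 FPKM in HET and 1.14, 2.04 and 2.36 FPKM in WT, with HOM below both other groups. Hes5 is not listed in HOM, so the 2 could not be compared there.

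The lincRNA 8030455M16Rik starts 7692 bases from Chst4, a sulfotransferase gene. It had 1.32, 0.58 and 1.2 FPKM in HOM, 1.90, 3.18 and 3.07 FPKM in HET and 2.74, 2.13 and 2.86 FPKM in WT. HOM was below both groups, and HET and WT overlap. Gm14635, on the X chromosome, stood at 12.1% of the WT mean in HOM, on 9 fragments in HOM, 97 in HET and 75 in WT. Of the 122 members 4 are X-linked. Xist, the RNA made from the inactive X chromosome of females, had 53.95, 107.88 and 56.88 FPKM in HET and 0.08, 78.17 and 0.06 FPKM in WT, and is not listed in HOM. Its part in the X-linked values was not tested.

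Higher in HOM was H19, an imprinted RNA of growing tissues and the most abundant member. H19 had 530.68, 535.92 and 564.90 FPKM in HOM, 538.78, 375.60 and 414.88 FPKM in HET and 459.20, 422.54 and 453.96 FPKM in WT. HOM was above WT, while HET replicate 1 reached the HOM values and the other HET libraries lay below every WT library. Gm34908 lies inside the span that GENCODE M21 gives Fgfr2, a growth factor receptor gene, with the 2 starts 757487 bases apart. Gm34908 had 2.58, 2.88 and 2.57 FPKM in HOM, 1.61, 2.12 and 1.92 FPKM in HET and 1.45, 2.05 and 1.51 FPKM in WT. HOM lay above both groups, which overlap.

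Gm10754 overlaps the end of Epyc, a small proteoglycan gene of supporting cells, on the opposite strand and shares 1041 exon bases with it. It had 6.42, 7.07 and 5.99 FPKM in HOM, 6.08, 6.23 and 5.44 FPKM in HET and 5.04, 4.20 and 4.90 FPKM in WT. HOM and HET overlap and both lay above WT. Epyc was at 952.13, 1050.07 and 963.31 FPKM in HOM, 812.92, 668.72 and 605.61 FPKM in HET and 695.96, 687.62 and 787.59 FPKM in WT, with HET and WT overlapping. Whether Epyc reads on the shared exon bases entered the Gm10754 value was not tested.

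The other long members the naming rule picks differed less from WT. Gm15201 was at 149% and Tmem147os at 152% of the WT mean in HOM, and Gm14286 at 127%. Cct6a, the locus of a chaperonin subunit that GENCODE M21 types as a processed transcript, had 50.4 ± 3.78 FPKM in HOM and 43.2 ± 1.09 FPKM in WT (SD, n = 3 each). Gm9752 was at 129%. D930016D06Rik was at 86.5% and Pantr2, a neural RNA beside Pou3f3, at 87.4%, and with upper-quartile scaling both turned higher in HOM. Among members outside the rule, picked here for their neighbours, Lockd, an enhancer-linked RNA downstream of the cell cycle inhibitor Cdkn1b, stood at 63.9%. Notumos, opposite the Wnt-inactivating enzyme gene Notum, stood at 60.4%.

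**Figure D2:**
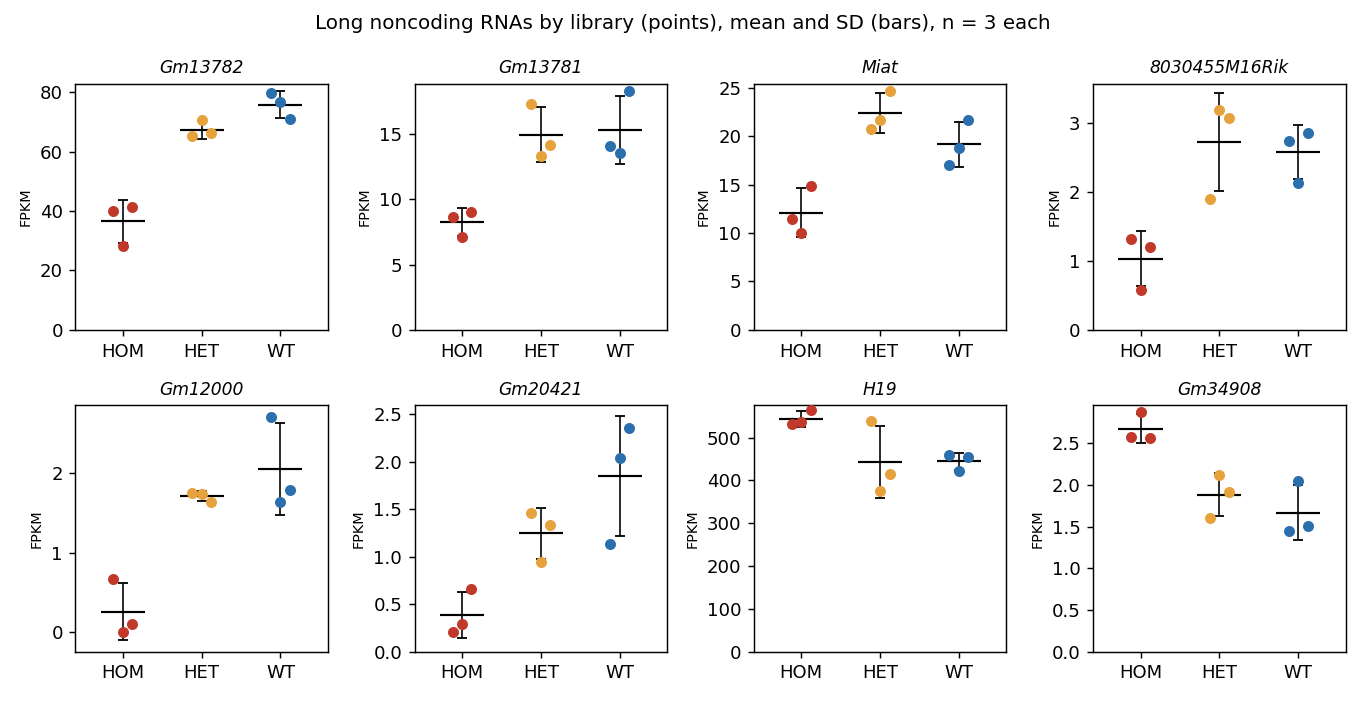
FPKM of 8 long noncoding members in each library (points) with the group mean and SD (bars, n = 3), for HOM, HET and WT from left to right. In 6 of the panels HOM lies below WT, and for H19 and Gm34908 it lies above.

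The 36 pseudogenes were lower in HOM in 23 cases, with a median difference of -0.35 and 11 at 50% of WT or less. Gm4825, the Rpl27 copy printed above, had 0.51, 0 and 0.16 FPKM in HOM, 6.61, 6.62 and 5.20 FPKM in HET and 7.92, 8.58 and 9.40 FPKM in WT. These values rest on 4 fragments in HOM, 124 in HET and 164 in WT. The 3 groups do not overlap, and HOM kept 2.51% of the WT level (95% counting interval 0.677% to 6.56%), while the HET mean was 71.2% of the WT mean. Rpl27 is not listed in HOM. It had 16.02 ± 3.48 FPKM in HET and 18.6 ± 1.46 FPKM in WT (SD, n = 3 each).

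Gm8615, which overlaps Hmgb1, is a copy of Gnpda1, the gene of an enzyme that converts glucosamine-6-phosphate to fructose-6-phosphate. The copies are 99.1% identical over 753 bases, so their reads could be split between them and both values are uncertain. Gm8615 had 0.70, 1.55 and 0.29 FPKM in HOM, 3.39, 2.14 and 2.22 FPKM in HET and 3.41, 4.55 and 5.52 FPKM in WT. The 3 groups do not overlap. Gnpda1 is also listed in HOM and ran the other way, with 15.78, 12.92 and 15.61 FPKM in HOM, 11.98, 10.83 and 10.76 FPKM in HET and 7.25, 6.89 and 6.27 FPKM in WT. Of the fragments on both genes, Gm8615 held 1.52% ± 1.30 in HOM, 5.52% ± 1.07 in HET and 14.5% ± 3.81 in WT (SD, n = 3 each). The summed fragments were 975.3 ± 94.9 in HOM, 839 ± 73.7 in HET and 534 ± 53.5 in WT, so the drop in Gm8615 is smaller than the gain in Gnpda1. Gnpda1 lies 4.06 Mb from Pou4f3 on chromosome 18, and an effect of the genotype and of the chromosome segment that travels with the mutant allele cannot be told apart.

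**Figure D3:**
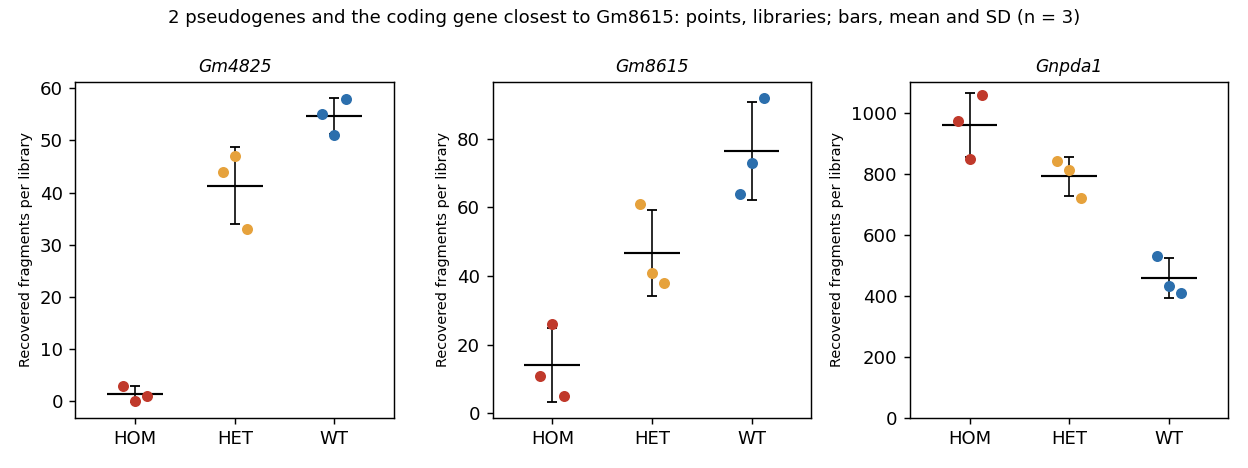
Recovered fragments per library (points) with the group mean and SD (bars, n = 3) for Gm4825, Gm8615 and Gnpda1, the coding gene closest to Gm8615, in HOM, HET and WT from left to right. The pseudogenes are lowest and Gnpda1 highest in HOM, with HET between HOM and WT in all 3 panels.

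Atp10d, the gene of a lipid-flipping ATPase that the reference annotation types as a polymorphic pseudogene has the most exon bases of the class, 7848. It had 0.75, 0.58 and 0.34 FPKM in HOM, 1.44, 2.09 and 1.93 FPKM in HET and 2.18, 2.14 and 2.75 FPKM in WT, on 195 fragments in HOM, 705 in HET and 862 in WT. The 3 groups do not overlap. Gm15459, a copy 99.7% identical to Hspa8, the constitutive heat shock chaperone, had 5.91, 3.89 and 8.67 FPKM in HOM, 8.58, 6.28 and 7.42 FPKM in HET and 14.38, 15.17 and 11.14 FPKM in WT. HOM and HET overlap and both lay below WT. Gm43555, 99.0% identical to part of Dgcr8, the partner of Drosha in miRNA processing, had 1.80, 2.33 and 2.25 FPKM in HOM, 4.94, 3.15 and 3.94 FPKM in HET and 3.6, 4.65 and 5.33 FPKM in WT. HOM lay below both groups. Dgcr8 itself is listed at 0 in all WT libraries, so reads of Dgcr8 may not have been assigned to it.

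Gm20257, a copy related to the apoptosis gene Casp8 at 89.0% identity, had the largest positive difference among members with at least 10 fragments. Its values were 1.87, 2.52 and 2.85 FPKM in HOM, 1.51, 1.78 and 1.51 FPKM in HET and 1.32, 1.10 and 1.41 FPKM in WT. The 3 groups do not overlap. Gm10156, 99.1% identical to the cold-induced RNA-binding protein gene Rbm3, had 10.74, 11.79 and 11.96 FPKM in HOM, 9.28, 7.59 and 10.86 FPKM in HET and 9.16, 7.88 and 6.01 FPKM in WT. HOM was above WT and overlaps HET.

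The rule picks 5 other pseudogenes that were higher in HOM. Gm10175, identical to Atp5g2 over 645 bases, was at 163% of the WT mean. Gm9442, 88.0% identical to Ptma, was at 152%. Gm10036, 99.3% identical to Rpl11, was at 143%, and Gm6477, 96.2% identical to Npm1, at 141%. Gm10241, identical to Sumo2 over 286 bases, had 35.5 ± 2.67 FPKM in HOM and 27.6 ± 2.46 FPKM in WT (SD, n = 3 each). Reads of Gm10241 and Sumo2 over those bases cannot be told apart.

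Single libraries decided the HET level of some copies. Rbpj-ps3, 99.7% identical to the Notch factor gene Rbpj, had 11.06, 9.97 and 9.78 FPKM in HOM, 2.89, 14.15 and 14.46 FPKM in HET and 13.82, 12.05 and 12.71 FPKM in WT. HET replicate 1 was below every HOM library and the other HET libraries above every WT library, so leaving out HET replicate 1 turns the sign of HOM minus HET. Gm9118, another Npm1 copy picked here for its HET values, had 13.32 FPKM in HET replicate 1 and 6.02 and 6.40 FPKM in the others. Gm12276 was at 82.9% and Ppp1ccb, a copy of a phosphatase subunit gene, at 87.9% of the WT mean in HOM, and Ppp1ccb turned higher with upper-quartile scaling.

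The 20 short RNAs were lower in HOM in 19 cases, with a median difference of -1.18 and 16 at 50% of WT or less. All had a WT mean of at least 1 FPKM, as every member did, so no rise from a lower WT level is among them. In HET, too, 16 of the 20 were lower than WT, with a median difference of -0.47 against -0.009 over all listed genes. WT values took part in the choice of the members, so neither direction is independent of it. Gm24682, the scaRNA printed above, rested on the most fragments of the class, 13, 5 and 13 fragments in HOM, 35, 27 and 24 in HET and 31, 28 and 21 in WT. Its level was 6.63, 2.39 and 6.03 FPKM in HOM, 15.65, 11.32 and 11.27 FPKM in HET and 13.29, 14.03 and 10.13 FPKM in WT. HOM lay below both other groups, at 39.9% of WT (95% counting interval 25.5% to 61.1%). Diablo, the gene it overlaps on the opposite strand, is not listed in HOM. B3gnt4, 6349 bases away on the same strand, is listed, at 1.29 ± 0.42 FPKM in HOM and 2.84 ± 0.82 FPKM in WT (SD, n = 3 each).

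Mir199a-1 lies opposite an intron of Dnm2, the gene of a membrane-scission GTPase, and gives rise to the miR-199a arms printed above. It had 3, 4 and 4 fragments in HOM, 13, 5 and 6 in HET and 9, 13 and 8 in WT. HOM lay below both groups by 1 fragment or more, at 37.8% of WT (95% counting interval 17.1% to 77.6%). Dnm2 itself had 19.60, 19.63 and 21.34 FPKM in HOM, 22.22, 19.47 and 20.0 FPKM in HET and 22.94, 22.22 and 23.17 FPKM in WT. Mir208a, inside the cardiac myosin gene Myh6, was the one short RNA above WT, with 5, 7 and 8 fragments in HOM, 9, 0 and 4 in HET and 3, 3 and 5 in WT. HOM and WT touch at 5 fragments and differ only after depth scaling, and the counting interval of 85.6% to 433% of WT includes 100%.

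Mir181d had 1 fragment in HOM, 8 in HET and 9 in WT in all. The 6 members with 0 fragments in the 3 HOM libraries were Mir7004, Mir7241, Gm47279, Mir6941, Snord37 and the rRNA-like Gm25908. Against a floor of 3 fragments over the group, HOM was at least 1.29-fold lower than WT for Mir7241, Mir6941 and Snord37, at least 1.94-fold lower for Gm47279 and at least 2.91-fold lower for Gm25908. These bounds rest on the floor alone: the 95% counting interval of HOM relative to WT reached up to 156% for Mir7241, Mir6941 and Snord37, which includes no difference, 87.5% for Gm47279 and 52.2% for Gm25908. Mir7004 had 3 fragments in WT, the floor itself, and gets no fold. Mir6941, in the Notch ligand gene Jag2, had 6, 3 and 4 fragments in HET and 2, 1 and 1 in WT, so HET was above WT although HOM had none. Snord37 is hosted by the elongation factor gene Eef2, a messenger at 820 FPKM in WT, and had 4 fragments in WT.

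The remaining short members that the rule picks were also lower in HOM, on few fragments. The rRNA-like Gm24188 had 6 fragments in HOM, 7 in HET and 25 in WT, and Gm23473 had 2 in HOM, 1 in HET and 8 in WT. Among snoRNAs, AF357399, hosted by the ribosomal protein gene Rps16, was at 58.0% of the WT mean in HOM, Snora57 at 54.4% and Gm23747 at 48.6%. Gm25301 was at 65.5%. At these depths a change of a few fragments sets the percentage.

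The 7 TEC loci were the only class with more members higher than lower in HOM, 4 against 3, with a median of 0.18. Gm49338, the most abundant, was at 81.8% of WT, Gm17530 at 63.8% and Gm47155 at 73.5%. Gm43461, the highest relative to WT, was at 154%.

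The rule by which genes were listed is not stated, and whether HET libraries took part in it is unknown. Listing was tied to HOM values, so HOM against HET is also described without a test. In 59 of the 122 members (48.4%) the 3 HOM libraries do not overlap the 3 HET libraries, 48 lower and 11 higher in HOM, against 61.7% over all listed genes, 46.5% lower and 15.1% higher. The share was 69.5% of long noncoding RNAs (41 of 59), 30.6% of pseudogenes (11 of 36), 28.6% of TEC loci (2 of 7) and 25% of short RNAs (5 of 20). Among members with at least 10 fragments it was 54.8% (51 of 93). Long noncoding RNAs thus stood near the background and the other classes below it. By finer type, 12 of 16 lincRNAs were apart, Miat and 8030455M16Rik among them, and 17 of 23 antisense RNAs. The count was 10 of 17 in processed transcripts and 6 of 27 in processed pseudogenes. The median difference, HOM minus HET, was -0.22 in the members and -0.17 over all listed genes, and with upper-quartile scaling -0.08 and 0.04.

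**Figure D4:**
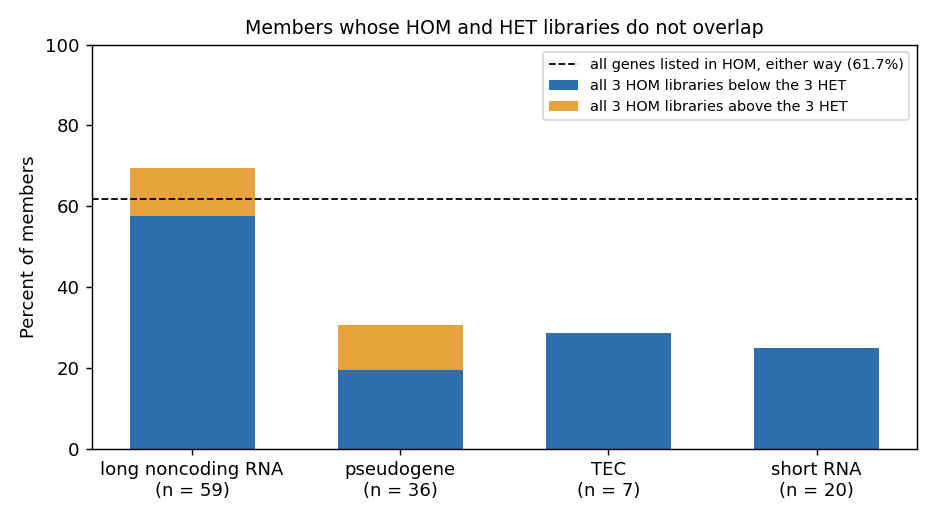
Percent of members in each class whose 3 HOM libraries do not overlap the 3 HET libraries, split into lower (blue) and higher (orange) in HOM, with a dashed line at the 61.7% of all genes listed in HOM. The long noncoding bar, at 69.5%, is the one above the line.

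The comparison of HET with WT covered the 15391 genes that reached 1 FPKM in 3 or more of these 6 libraries, 117 members among them, with limma on log2(FPKM + 1). No gene passed a Benjamini-Hochberg adjusted p of 0.05 (0% of genes), and the smallest adjusted p of a member was 0.9998. At an unadjusted p under 0.05, 266 genes passed (1.73%), and 16 of the 117 members (13.7%). This comparison shares the WT libraries with the choice of the members. In 24 of the 117 (20.5%) the 3 HET libraries do not overlap the 3 WT libraries, 17 lower and 7 higher in HET, against 5.94% of all genes tested, 3.12% lower and 2.82% higher. Without the filter on low values, 29 of the 122 members (23.8%) and 236 of all 1137 listed genes (20.8%) were apart.

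Gm4825 was 0.44 lower in HET than in WT on the log2(FPKM + 1) scale (SE 0.11) and Gm8615 0.62 lower (SE 0.19). In limma their unadjusted p was 0.00736 for Gm4825 and 0.0169 for Gm8615, both with an adjusted p of 0.9998. Gm15459 was 0.79 lower (SE 0.15, unadjusted limma p 0.00139). Gm10754 was 0.28 higher (SE 0.10, unadjusted limma p 0.0259). Gm13782 was 0.17 lower in HET with libraries apart, at an unadjusted limma p of 0.0818. The HET mean lay between those of HOM and WT in 79 members (64.8%), as in 64.0% of all listed genes, beyond the WT mean in 35 and beyond the HOM mean in 8.

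On the genome the members sit among coding genes in several ways. By GENCODE M21, 24 overlap a coding gene on the same strand, 49 one on the opposite strand and 49 none, and 28 share exon bases with one. Of the members, 20 have a coding gene within 10 kb that is itself listed in HOM, giving 20 pairs. In 17 pairs the member and the coding gene differed from WT in the same direction, and in 11 of the 13 pairs on opposite strands. With 72.1% of members and 69.5% of listed coding genes lower in HOM, unrelated pairs would also share a direction more often than not. That share was not calculated, so the 17 of 20 pairs have no background here. None of the 28 hair cell markers lies within 10 kb of a member.

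Several of these coding genes act in sensory or neural cells. Gm13631 overlaps Myo3b, a myosin of stereocilia, and shares 70 exon bases with it. It had 0.64, 0.50 and 0.39 FPKM in HOM, 1.5, 0.79 and 1.18 FPKM in HET and 2.07, 1.47 and 0.91 FPKM in WT. Myo3b had 1.12, 0.94 and 0.70 FPKM in HOM, 2.75, 3.90 and 3.58 FPKM in HET and 3.21, 3.33 and 2.85 FPKM in WT. For both genes HOM lay below the other groups.

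Gm14207 shares 214 exon bases with Dll4, a Notch ligand, and its promoter is printed above. Gm14207 had 0.53, 0.62 and 1.02 FPKM in HOM, 1.74, 0.82 and 2.01 FPKM in HET and 1.90, 2.02 and 1.38 FPKM in WT. Dll4 had 1.2, 0.85 and 1.57 FPKM in HOM, 2.53, 2.06 and 2.59 FPKM in HET and 2.12, 3.12 and 2.51 FPKM in WT. HOM overlaps HET for Gm14207 but lies below it for Dll4.

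Gm15849 was at 5.78% of the WT mean in HOM on 1 fragment, against 17 in WT, opposite Tmcc2, which had 9.63 ± 2.06 FPKM in HOM and 17.6 ± 0.82 FPKM in WT (SD, n = 3 each). The 3 pairs with opposite directions were Gm3828 with Gng7, Alkbh3os1 with Alkbh3, and Gm15351 with Mcf2l. Alkbh3os1 was at 81.0% of its WT mean while Alkbh3, a DNA and RNA demethylase gene, had 10.04, 10.40 and 11.98 FPKM in HOM, 9.13, 8.86 and 8.69 FPKM in HET and 8.76, 9.04 and 8.31 FPKM in WT. These 2 share 85 exon bases, so part of the reads of one could have been assigned to the other.

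**Figure D5:**
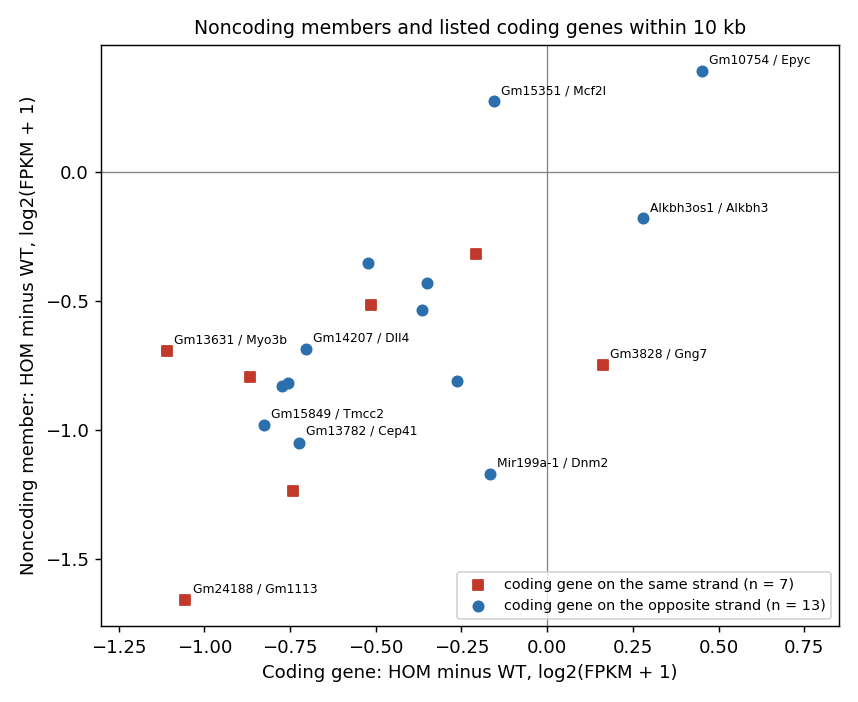
Difference of HOM from WT, as mean log2(FPKM + 1), for 20 members (vertical axis) and the listed coding gene within 10 kb of each (horizontal axis), with squares for the same strand and circles for opposite strands. Of the 20 points 17 lie where both genes differ in the same direction, all but 1 of them lower in HOM.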

How the data were processed

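RNA from postnatal day 3 cochleae was measured in 9 libraries, 3 per genotype. The deposited values are FPKM to 2 decimals, computed by the authors per library. DESeq2 and the mm8 build are named, per the submitters' processing notes. The aligner, the counter and the annotation were not given in the sources used here. Gene IDs were matched to GENCODE M21 on GRCm38, 51719 of 51912 in HET and WT and 1136 of 1137 in HOM. The members, lists and named genes were chosen with earlier results of these data known.

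Depth was recovered from the steps of low FPKM values in genes of up to 600 exon bases: 99.3% to 100% were whole fragments within 0.1, over 21 to 29 values per HOM library and 2123 or more in the others. A count test was not used, since fragments are recovered per gene length. HET and WT were compared with limma 3.58.1 in R 4.3.3, with a mean-variance trend, on log2(FPKM + 1), with Benjamini-Hochberg adjustment and two-sided tests, after a check on simulated data. Changes are the first group named minus the second. Intervals are exact, with 95% confidence. They cover counting error alone, since PCR copies cannot be removed.

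Named genes were the 10 most negative and 10 most positive differences of HOM from WT among members averaging 1 FPKM and 10 fragments, the 3 most abundant of each type with at least 3 members, and members of the noncoding lists. Pseudogenes were aligned to coding transcripts with BLAST+ 2.17.0. Alternatives were a pseudocount of 0.1, other scalings, filters, the replicate block and leaving out libraries. In comparisons with HOM the scaling factors came from listed genes alone.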

Additional observations from a re-analysis of the deposited data

How the results depend on the processing

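The median difference of HOM from WT over the members, -0.45, was -0.63 with a pseudocount of 0.1, -0.35 with median-ratio scaling, -0.26 with upper-quartile scaling, -0.30 in members with at least 10 fragments and -0.38 after the filter at 1 FPKM, and -0.45 to -0.40 with 1 library left out. That of HOM from HET, -0.22, was -0.33, -0.15 and -0.081 under the first 3 of these, and -0.26 to -0.19 with 1 library left out. Upper-quartile scaling turned Pantr2 to 0.063 in HOM against WT and left 68 members lower and 53 higher in HOM than HET, against 84 and 37 as reported. Both scalings rest on listed genes alone, most of them lower in HOM. How far the choice of genes sets the shifts they give was not tested, since unlisted genes have no HOM value here.

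In HET against WT, limma called 0 genes, but 1 without WT replicate 1 and 1 without WT replicate 2, neither a member. Without HET replicate 1, 1833 genes passed an unadjusted p of 0.05, and 2356 without HET replicate 1 and WT replicate 3 together, which set Gm24682 at -0.25 and Gm6477 at -0.013. Leaving out single libraries turned the sign of these small differences: 8030455M16Rik ran from -0.052 to 0.21, Gm24682 from -0.12 to 0.11, Pantr2 from -0.022 to 0.060, H19 from -0.17 to 0.087, Gm15201 from -0.028 to 0.19, Tmem147os from -0.16 to 0.059 and Gm10175 from -0.11 to 0.23.

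HET and WT share replicate numbers, but whether these pair the samples is not stated. Deviations of same-numbered libraries correlated at -0.52, 0.29 and -0.47. With 3 libraries per group, such correlations cannot decide whether samples were paired. With the replicate block limma called 0 genes and 0 members, with 173 genes at an unadjusted p under 0.05 and 16 members among them. Short RNAs rest on few fragments, and the genotype labels disagree with the titles, so the limits on direction stand for every value.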

Other observations

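Noncoding genes known from neural and growing tissue were looked at in HET and WT, where nearly all genes are listed. Of the fixed noncoding lists (small nucleolar RNA hosts, imprinted, nuclear, neural and sensory RNAs, and miRNA hosts), H19, Miat and Pantr2 are listed in HOM. Several genes of these lists, Meg3, Rian, Mir96 and Mir183 among them, fell below the filter and were not tested in HET against WT. None of those tested passed limma's adjusted threshold, as no gene of the 15391 did, so this says nothing particular to the lists. Malat1, an abundant nuclear RNA, had 286 FPKM in HET and 215 FPKM in WT on average and was 0.42 higher in HET (SE 0.13, unadjusted limma p 0.0137, adjusted p 0.9998). Gas5, a snoRNA host, had 64.4 FPKM in HET and 64.8 FPKM in WT.

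The locus of Mir182, one of the sensory miRNAs of hair cells, had 10.62, 6.89 and 9.43 FPKM in HET, against 12.53, 5.49 and 14.1 FPKM in WT. Of the 9 miRNA-processing genes and the 11 genes of noncoding RNA processing and decay, none is listed in HOM. In HET against WT, Dgcr8 was not tested, and none of the others passed the adjusted threshold in limma, as no gene did. The summed level of the first list was 74.72 to 99.96 FPKM in HET and 76.01 to 95.25 FPKM in WT. That of the second was 177.89 to 193.58 FPKM in HET and 182.59 to 196.94 FPKM in WT.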
